A study of Homo sapiens with 12 samples.

Results

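The genes described here are 36 genes of the NRF2 pathway and of oxidative stress defence, out of 38434 genes with a symbol in the count tables. They were listed by name, by what they are known to do, with earlier results of these data known. They hold the factor NRF2 itself (gene NFE2L2) with the adaptor and the scaffold that direct its degradation (KEAP1, CUL3), and genes of glutathione synthesis, glutathione use, the thioredoxin system, quinone and carbonyl reduction, NADPH supply, heme and iron handling, the growth inhibitor OSGIN1 and the enzymes that remove superoxide and peroxide (SOD1, SOD2, CAT). All 36 passed the filter on low counts in each of the 4 comparisons.

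RNA was sequenced from the human lung squamous cell carcinoma (LUSC) lines LK-2, grown in RPMI1640, and RERF-LC-AI, grown in Eagle's minimum essential medium. Each line carried a lentiviral vector with a blasticidin resistance marker that expressed either ZsGreen, a fluorescent protein (LK2-ctrl and LC-AI-ctrl), or maspin, the serpin encoded by SERPINB5, together with ZsGreen (LK2-maspin and LC-AI-maspin), and each of the 4 groups was a pool of the resistant clones with 3 libraries. A pool is 1 transduction, so that the 3 libraries of a group do not repeat the transduction, and whether they came from separate cultures was not given. P-values therefore measure the spread between these libraries, which may be technical. The lines also differ in medium and in the table that holds their counts, so that in any comparison between them the line, its medium and its table cannot be told apart. Where maspin cells are part of such a comparison, the level of maspin differs as well.

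Counts over the named genes summed to 39802246 to 54941357 per LK-2 library and 50143577 to 65454432 per RERF-LC-AI library. SERPINB5 was at 1.90, 1.89 and 1.70 CPM (counts scaled to a common library total) in LK2-ctrl and 47.2, 47.4 and 44.8 in LK2-maspin, and at 0.291, 0.154 and 0.216 in LC-AI-ctrl and 551, 516 and 470.3 in LC-AI-maspin libraries, as the labels say. All CPM values here were scaled by TMM, a factor that evens out library composition, over all 12 libraries. Of 6 squamous markers, only SOX2 in LK-2 cells was abundant (ctrl libraries 530.4, 496 and 474 CPM, against 0.291, 0.212 and 0.668 in LC-AI-ctrl). TP63 and the keratins KRT5, KRT6A and KRT14 stayed at or below 8.40 CPM in all 12 libraries and DSG3 at or below 8.48, so that these defining squamous markers were low in both lines. KRT5 nevertheless moved with maspin in LK-2, from 0.948, 0.625 and 0.607 CPM in LK2-ctrl to 5.21, 7.14 and 8.40 in LK2-maspin libraries (log2 change 3.25, adjusted p = 4.65e-05, edgeR). SOX2 went the other way, to 434, 376 and 383 CPM in LK2-maspin libraries, below all LK2-ctrl libraries, but did not pass (log2 change -0.33, adjusted p = 0.0756, edgeR). Of markers of other cell types, the 3 leukocyte markers summed to at most 3.97 CPM in LK2-ctrl and 46.9 to 47.6 in LC-AI-ctrl libraries, nearly all of it CD68, while CD3E was at or below 0.142 CPM in every library. The 3 neuroendocrine markers summed to 27.23 to 32.21 CPM in LK2-ctrl, nearly all of it INSM1, and 3.925 to 4.867 in LC-AI-ctrl libraries. The 3 lung adenocarcinoma markers summed to 7.384 to 7.825 and 1.308 to 1.935 CPM, and the 3 endothelial markers to at most 6.494 in any library. The 3 fibroblast markers summed to 12.8 to 21.6 CPM in LK2-ctrl, 13.4 to 21.3 in LK2-maspin, 32.2 to 49.1 in LC-AI-ctrl and 22.9 to 25.7 in LC-AI-maspin libraries. The part of these differences in the results below was not tested.

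NRF2 is a transcription factor that KEAP1, joined to the CUL3 ubiquitin ligase, keeps low in unstressed cells. Electrophiles and oxidants modify KEAP1, NRF2 is then spared, and with a small MAF protein it binds antioxidant response elements and switches on genes that make glutathione and NADPH, reduce quinones and aldehydes, and store iron. Mutations that free NRF2 from KEAP1 are frequent in LUSC, and AKR1C, NQO1, GPX2, ALDH3A1 and OSGIN1 are among the genes known to rise when the pathway is on. No genotype of either line was used here, and the RNA level of NFE2L2 does not measure the protein.

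The element that NRF2 and a MAF protein bind has the core letters TGACNNNGC, in which N is any base. This motif was searched on both strands in RefSeq promoters of GRCh38.p14, from 250 bases before to 50 after each gene start, because it is the letter string that most directly ties these genes to the factor. Promoters were matched for 27 of the 36 genes, 40 promoters in all, of which 10 held the motif (25.0%), against 4687 of 35116 promoters of all genes (13.3%). AKR1B10, ALDH3A1, FTH1, GSR, HMOX1, PRDX1, PRDX6, SLC7A11 and SOD1 were not matched. The motif was found in CBR1, GCLM, GPX2, GSTP1, KEAP1, ME1, MGST1, PGD and TXNRD1. The windows below show a match in GPX2 and CBR1, which stood more than 16-fold apart between the lines in opposite directions, and in ME1 and TXNRD1, which stood apart by less. Each runs 5′ to 3′ on the strand of its gene and ends before the gene start, and the capitals mark the motif, which reads as written in ME1 and TXNRD1 and on the other strand in GPX2 and CBR1.
GPX2 chr14:64942844-64942882 (-): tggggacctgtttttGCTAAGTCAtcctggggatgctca
CBR1 chr21:36069850-36069888 (+): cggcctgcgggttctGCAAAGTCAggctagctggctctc
ME1 chr6:83431165-83431203 (-): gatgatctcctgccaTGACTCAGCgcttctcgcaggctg
TXNRD1 chr12:104215665-104215703 (+): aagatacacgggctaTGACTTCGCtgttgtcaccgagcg
Counted from the RefSeq start, the motif began 122 bases before it in GPX2, 159 in CBR1, 137 in ME1 and 99 in TXNRD1. For CBR1 this start differs from that of the gene coordinates given below, which came from GENCODE. A match of letters is a description, and binding was not measured in these cells.

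The ctrl cells of the lines were compared first, in 1 edgeR fit of all 12 libraries. This comparison asked how far the pathway differs between the lines before maspin is added. Of the 36 genes, 31 passed an adjusted p of 0.05, where 61.9% of the 28123 genes tested passed. All genes tested were not matched to the 36 genes by level, here or below. In LK2-ctrl 33 of the 36 genes had a mean over 8 CPM, and 10577 of the 28123 did. Shares and sizes over all genes are thus partly those of weakly expressed genes. In LK2-ctrl 20 were higher (55.6%, against 31.4% of all genes) and 11 lower (30.6%, close to the 30.5% of all genes). By size, 17 of the 36 differed more than 2-fold, against 34% of all genes, and 7 more than 16-fold (19.4%), against 4.87% of all genes. The 7 were AKR1C1, AKR1C2, AKR1C3, ALDH3A1 and GPX2, higher in LK-2, and CBR1 and HMOX1, lower in LK-2. The median log2 difference was 0.42 over the 36 genes and 0.12 over all genes tested. With upper-quartile factors the median of all genes moved to 0.34, and the 36 genes moved up with it, such as KEAP1 from 0.05 to 0.27 and GCLC from 1.23 to 1.45. Where 0 lies between the lines thus turns on the scaling. The median of the 36 genes was not taken with those factors. Together the 36 genes took 1.94 ± 0.175% of the counts in LK2-ctrl and 0.870 ± 0.0193% in LC-AI-ctrl libraries (SD, n = 3). Less RNA per cell and fewer cells that express a gene cannot be told apart in such bulk libraries.

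**Figure D1:**
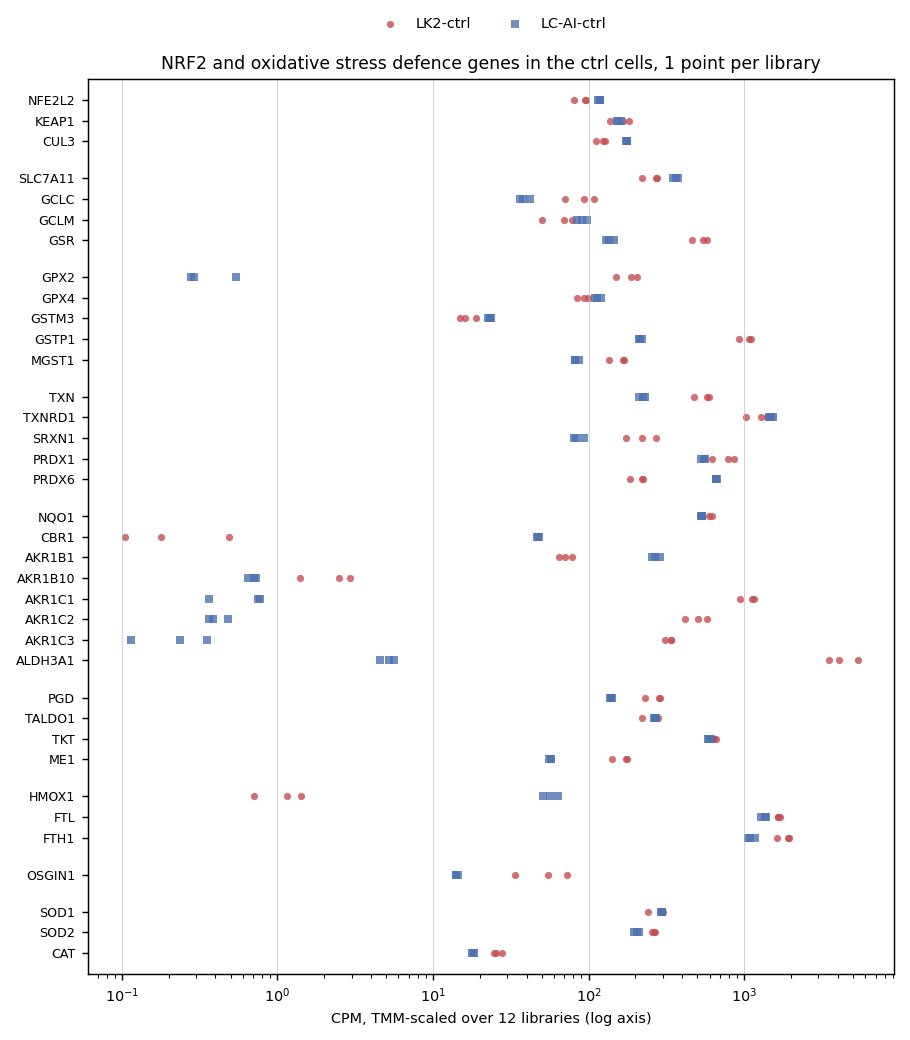
Level of the 36 genes in the ctrl libraries, as CPM on a log axis, with 1 point per library (circles for LK2-ctrl, squares for LC-AI-ctrl) and gaps between roles. The 3 AKR1C genes, ALDH3A1 and GPX2 lie far to the right in LK-2, CBR1 and HMOX1 far to the left, and most other genes within a few fold of each other.

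The factor and its degraders differed by less than 2-fold. NFE2L2 (chr2:177218667-177392756, GRCh38) was at 96.7, 95.5 and 80.8 CPM in LK2-ctrl and 118, 118 and 115 in LC-AI-ctrl libraries. All LK-2 values lay below all RERF-LC-AI values, a log2 difference of -0.36 (SE 0.07, adjusted p = 1.48e-04, edgeR), which lost its call with upper-quartile factors (adjusted p = 0.0526). KEAP1 (chr19:10486125-10503558) was at 182, 166 and 137 CPM against 153, 162 and 154, with groups that overlapped and no call (adjusted p = 0.641). With upper-quartile factors KEAP1 was called higher in LK-2 (0.27, adjusted p = 0.00407, edgeR). CUL3 (chr2:224470150-224585397) was at 128, 124 and 112 CPM against 175, 178 and 176 and lower in LK-2 by a log2 difference of -0.54 (SE 0.06, adjusted p = 1.60e-07).

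The largest differences lay in the enzymes that act on aldehydes and ketones. ALDH3A1 (chr17:19737984-19748943), an aldehyde dehydrogenase, was at 5373, 4075 and 3526 CPM in LK2-ctrl and 5.64, 5.23 and 4.59 in LC-AI-ctrl libraries. It was the most abundant of the 36 genes per length in LK-2, at 2639 CPM per kilobase of its MANE Select transcript, and ranked 31 of 36 in RERF-LC-AI, at 3.14. Its log2 difference was 9.71 (SE 0.21, adjusted p = 4.13e-19, edgeR).

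AKR1C1, AKR1C2 and AKR1C3 encode aldo-keto reductases that act on ketosteroids, prostaglandins and lipid aldehydes, and lie side by side on chromosome 10 (chr10:4963253-4983283, chr10:4987775-5018031 and chr10:5035354-5107686). AKR1C1 was at 1166, 1119.6 and 945 CPM in LK2-ctrl libraries, while LC-AI-ctrl libraries had 37, 19 and 35 reads, or 0.770, 0.365 and 0.755 CPM. AKR1C2 was at 581, 502 and 417 CPM against 0.478, 0.365 and 0.388, the latter from 23, 19 and 18 reads. AKR1C3 was at 311, 339 and 339 CPM against 0.354, 0.115 and 0.237, the latter from 17, 6 and 11 reads. All 3 genes were thus expressed in LK-2 and near 0 in RERF-LC-AI cells, with log2 differences of 10.75 (SE 0.21), 10.24 (SE 0.17) and 10.46 (SE 0.14). The transcripts of AKR1C1 and AKR1C2 are alike, since 22.3% of the 50-base windows of AKR1C1 are also in AKR1C2 and 45.7% of those of AKR1C2 in AKR1C1, so the split of reads between them is uncertain. The relative AKR1B10 shares 17.2% of its windows with other transcripts and was low in both lines, at 2.92, 2.50 and 1.40 CPM in LK2-ctrl and 0.645, 0.712 and 0.733 in LC-AI-ctrl libraries. AKR1B1, aldose reductase, went the other way, at 71.4 ± 6.61 CPM in LK2-ctrl and 269.5 ± 16.5 in LC-AI-ctrl (SD, n = 3, log2 difference -1.92).

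CBR1 (chr21:36069941-36073166), a carbonyl reductase, showed the reverse of the AKR1C pattern. LK2-ctrl libraries held 9, 6 and 24 reads of it, or 0.178, 0.104 and 0.486 CPM, and LC-AI-ctrl libraries 47.1, 48.1 and 46.8 CPM (log2 difference -7.56, SE 0.19, adjusted p = 6.93e-18, edgeR). Of its 50-base windows 28.6% are shared with an overlapping transcript without a symbol. NQO1, the quinone reductase often read as a marker of NRF2 activity, was not called between the lines, at 622, 592 and 522 CPM in LK2-ctrl and 534, 528 and 537 in LC-AI-ctrl libraries (log2 difference 0.12, SE 0.06, adjusted p = 0.0952, edgeR). This turned on the scaling, since with upper-quartile factors it was called higher in LK-2 (0.34, adjusted p = 5.63e-06, edgeR).

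All 4 genes of glutathione synthesis and recycling passed the test, in both directions. GCLC, the catalytic subunit of the rate-limiting ligase, was higher in LK-2 (90.8 ± 19.1 against 38.7 ± 2.75 CPM, SD, n = 3), whereas GCLM, its modifier subunit, was lower (66.2 ± 14.6 against 91.0 ± 7.27). GSR, which reduces oxidised glutathione, was at 581, 545 and 462 CPM in LK2-ctrl and 129, 146 and 136 in LC-AI-ctrl libraries (log2 difference 1.95, SE 0.08). The cystine importer SLC7A11 was lower in LK-2, by a log2 difference of -0.51 (SE 0.08). The calls of GCLM, and of GPX4, GSTM3 and TXNRD1 named below, were lost with upper-quartile factors or with library size alone.

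Among the 5 genes that use glutathione, GPX2 (chr14:64939152-64942746), an epithelial glutathione peroxidase, stood out. It was at 203, 187 and 149.8 CPM in LK2-ctrl libraries, and 14, 28 and 13 reads (0.291, 0.538 and 0.280 CPM) were counted in LC-AI-ctrl (log2 difference 8.90, SE 0.20, adjusted p = 9.23e-19, edgeR). The glutathione transferase GSTP1 was higher in LK-2 as well (1037 ± 91.0 against 216 ± 5.02 CPM, log2 difference 2.26), and so was the membrane-bound MGST1 (0.91). GPX4, which reduces lipid peroxides, and the transferase GSTM3 were lower, by log2 differences of -0.32 and -0.48.

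In the thioredoxin system, thioredoxin itself (TXN, log2 difference 1.31), the sulfiredoxin SRXN1 (1.37) and the peroxiredoxin PRDX1 (0.47) were higher in LK2-ctrl, and PRDX6 (-1.66) and thioredoxin reductase TXNRD1 (-0.26) lower. TXNRD1 was nonetheless abundant in both lines, at 1402, 1291 and 1027 CPM in LK2-ctrl and 1483, 1443 and 1537 in LC-AI-ctrl libraries. Of the windows of SRXN1, 90.6% are also in an overlapping transcript without a symbol, so its counts may hold reads of that transcript.

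Of the genes that supply NADPH, malic enzyme ME1 (log2 difference 1.53, SE 0.08) and the pentose phosphate enzyme PGD (0.94, SE 0.07) were higher in LK-2. TALDO1 and TKT, of the same pathway as PGD, gave no call (log2 differences -0.06 and 0.10, adjusted p = 0.484 and 0.103, edgeR). With upper-quartile factors both were called higher in LK-2 (0.16 and 0.33, adjusted p = 0.0415 and 3.03e-06, edgeR).

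HMOX1 (chr22:35380361-35394214), heme oxygenase, was at 0.711, 1.15 and 1.42 CPM in LK2-ctrl, from 36, 66 and 70 reads, and at 51.1, 63.3 and 56.8 in LC-AI-ctrl libraries. Thus it was more than 16-fold lower in LK-2 (log2 difference -5.71, SE 0.17, adjusted p = 1.28e-16, edgeR). The ferritin chains FTL and FTH1, which store iron, were among the 3 most abundant of the 36 genes per length in each line and were higher in LK-2 by 0.31 and 0.72 on the log2 scale. Both share windows with pseudogenes (18.5% and 41.3%), so that their counts are uncertain.

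OSGIN1 was higher in LK-2 but uneven, at 72.5, 55.0 and 33.8 CPM in LK2-ctrl and 14.1, 14.4 and 14.0 in LC-AI-ctrl libraries (log2 difference 1.92, SE 0.22). Catalase (CAT, 0.52) and the mitochondrial SOD2 (0.37) were slightly higher in LK-2, and the cytosolic SOD1 was not called (-0.10, adjusted p = 0.236, edgeR). The pathway was therefore not uniformly higher in either line.

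Maspin against ctrl was tested within each line, to see whether maspin expression moved these genes. In LK-2 cells 1 of the 36 genes passed the test, where 0.533% of the 26270 genes tested did. The median log2 fold change was -0.02 over the 36 genes, and the median size of the change was 0.04, against 0.11 over all genes tested. The latter hold many weaker genes and were not matched by level, so whether the 36 genes moved less than comparable genes was not tested. At an unadjusted p under 0.05, 6 of the 36 genes passed, against 6.36% of all genes.

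The gene that passed was SLC7A11 (chr4:138164097-138242349, Entrez ID 23657), which brings in cystine for glutathione. It was at 275, 270.4 and 222 CPM in LK2-ctrl and 359, 392 and 354 in LK2-maspin libraries. All 3 maspin libraries lay above all 3 ctrl libraries, and the log2 change was 0.53 (SE 0.08, adjusted p = 0.00742, edgeR). The call was lost without LK2-ctrl replicate 2 (adjusted p = 0.0549) and without LK2-maspin replicate 2 (adjusted p = 0.106). Without LK2-ctrl replicate 3 it held, and MGST1 (-0.30, adjusted p = 0.0426) and AKR1C1 (-0.31, adjusted p = 0.0406) passed as lower beside it, where 0.734% of all genes passed.

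The other genes of glutathione synthesis did not pass with it, as GCLC (-0.06), GCLM (-0.05) and GSR (-0.02) had log2 fold changes smaller than their SE. NFE2L2 was at 96.7, 95.5 and 80.8 CPM in LK2-ctrl and 96.5, 95.2 and 86.3 in LK2-maspin libraries. KEAP1 was at 182, 166 and 137 and 179.6, 164 and 152 CPM, and CUL3 at 128, 124 and 112 and 131, 119 and 116. These groups overlapped for all 3 genes, with log2 fold changes of 0.03 (SE 0.07), 0.04 (SE 0.09) and 0.01 (SE 0.07).

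HMOX1 was the other gene whose LK-2 groups did not overlap, at 0.711, 1.15 and 1.42 CPM in ctrl and 1.45, 2.47 and 1.95 in maspin libraries. The share of all genes whose groups did not overlap was not taken, so a lack of overlap is only a description, here and elsewhere. The log2 change of HMOX1, 0.83 (SE 0.28), did not pass the correction (adjusted p = 0.498, edgeR), and its highest ctrl and lowest maspin values were close. The abundant reductases had log2 fold changes of -0.35 (SE 0.16) for ALDH3A1, -0.24 (SE 0.08) for AKR1C1, -0.21 (SE 0.11) for AKR1C2 and -0.05 (SE 0.07) for AKR1C3. ALDH3A1 was at 5373, 4075 and 3526 CPM in ctrl and 4285, 3111 and 2750.2 in maspin libraries 1, 2 and 3, lower with maspin for each number. In this fit, which does not use the library number, none of the 4 passed.

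**Figure D2:**
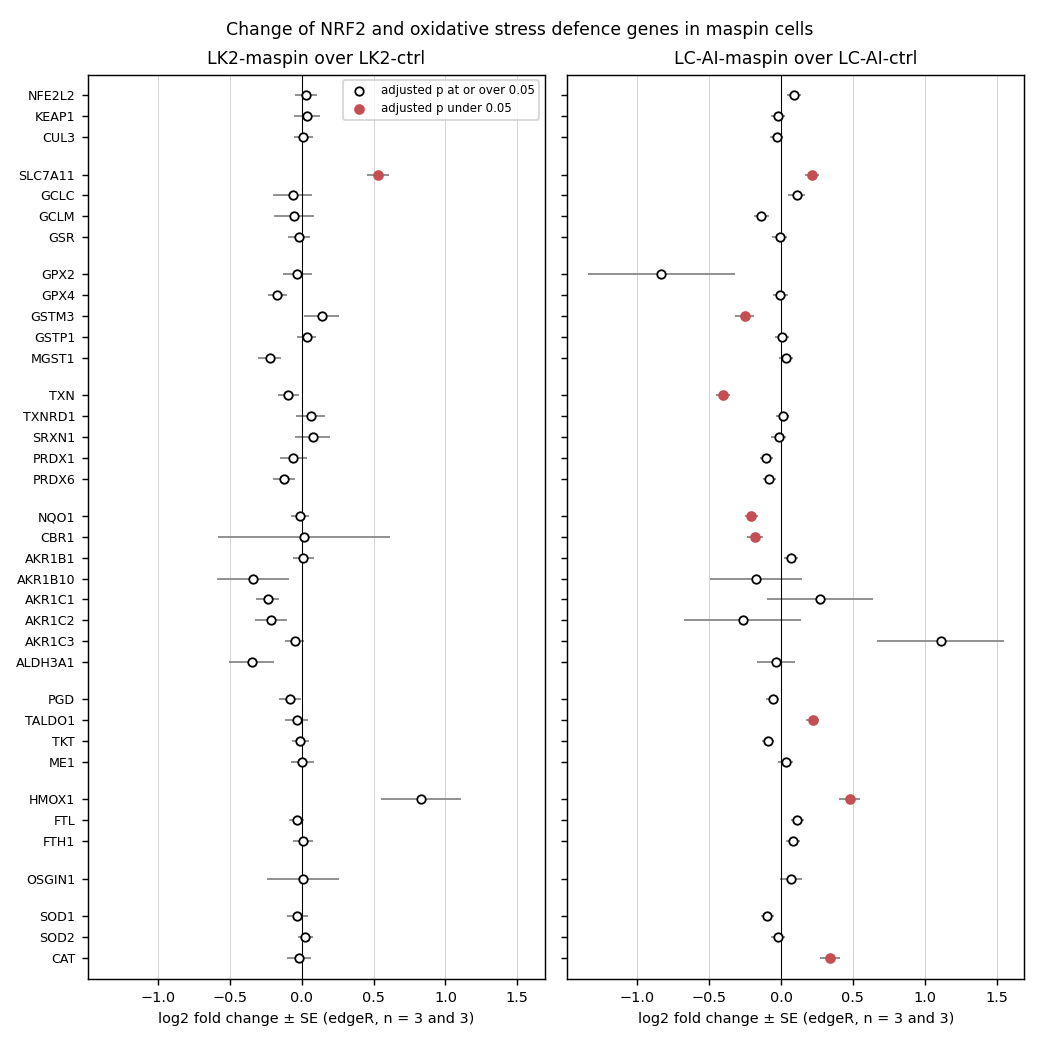
Log2 fold change of each of the 36 genes in maspin over ctrl libraries, with its SE (edgeR, 3 and 3 libraries), for LK-2 on the left and RERF-LC-AI on the right, filled where the adjusted p was under 0.05. 1 point is filled for LK-2, SLC7A11 at 0.53, and 8 for RERF-LC-AI, from -0.40 (TXN) to 0.48 (HMOX1), and the wide bars belong to genes of few reads.

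In RERF-LC-AI cells 8 of the 36 genes passed the test (22.2%), where 10.5% of the 25197 genes tested did. Of the 8, 4 were higher with maspin, against 4.01% of all genes, and 4 lower, against 6.53%. The median log2 fold change was -0.01 over the 36 genes, with a median size of 0.09 against 0.15 over all genes tested, and none of those that passed changed by more than 2-fold (0.472% of all genes passed and did so). These shares and sizes too stand beside all genes tested, not beside genes of like level. SLC7A11, HMOX1, TALDO1 and CAT rose, and TXN, NQO1, GSTM3 and CBR1 fell.

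HMOX1 rose most, from 51.1, 63.3 and 56.8 CPM in LC-AI-ctrl to 75.0, 91.2 and 71.8 in LC-AI-maspin libraries. The groups did not overlap, and the log2 change was 0.48 (SE 0.07, adjusted p = 2.54e-05, edgeR). CAT (chr11:34438934-34472060), which breaks down hydrogen peroxide, rose from 18.1, 18.4 and 17.8 to 21.5, 23.8 and 23.5 CPM (0.34, SE 0.07, adjusted p = 0.00128). Here too each maspin library lay above each ctrl library.

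TALDO1 (chr11:747415-765012), transaldolase of the pentose phosphate pathway, went from 273, 267 and 264 to 289.8, 324 and 321 CPM (0.22, SE 0.05, adjusted p = 0.00221, edgeR). SLC7A11 went from 379, 349 and 363 to 391, 444 and 431 CPM (0.22, SE 0.05, adjusted p = 0.00334). Both had groups that did not overlap, and SLC7A11 was the 1 gene of the 36 that passed in both lines.

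TXN (chr9:110243810-110256507), thioredoxin, fell most, from 212, 229 and 225 CPM in LC-AI-ctrl to 165, 175 and 164 in LC-AI-maspin libraries, with no overlap (log2 fold change -0.40, SE 0.05, adjusted p = 5.04e-07, edgeR). Its reductase TXNRD1 was at 1483, 1443 and 1537 and 1460.3, 1558 and 1479 CPM and did not pass (0.01, SE 0.05). NQO1 (chr16:69706996-69726668) fell from 534, 528 and 537 to 456, 468 and 460.4 CPM (-0.21, SE 0.04, adjusted p = 0.00144), and its 3 libraries of each group were within a few percent of each other.

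GSTM3 (chr1:109733932-109741038) fell from 23.2, 23.5 and 22.5 to 20.0, 18.7 and 19.3 CPM (-0.25, SE 0.07, adjusted p = 0.0138, edgeR), and CBR1 from 47.1, 48.1 and 46.8 to 39.4, 43.0 and 42.4 CPM (-0.18, SE 0.06, adjusted p = 0.0286). These were the weakest of the 8 calls. That of GSTM3 was lost without LC-AI-maspin replicate 2 (adjusted p = 0.0781) or replicate 3 (0.0613), and that of CBR1 without any 1 library other than LC-AI-maspin replicate 2 (adjusted p from 0.0506 to 0.166).

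The factor and its degraders gave no call in RERF-LC-AI cells. NFE2L2 was at 118, 118 and 115 CPM in LC-AI-ctrl and 119, 130.2 and 124 in LC-AI-maspin libraries, with a log2 change of 0.09 (SE 0.05, adjusted p = 0.305, edgeR) and groups that did not overlap. KEAP1 was at 153, 162 and 154 and 150.0, 162 and 149 CPM, and CUL3 at 175, 178 and 176 and 169.5, 176 and 173, both with overlap. The log2 fold changes of the glutathione ligase subunits were 0.11 (SE 0.06) for GCLC and -0.14 (SE 0.05) for GCLM, and neither passed. Among the heme and iron genes HMOX1 was the 1 that passed, as FTL (0.11, SE 0.04) and FTH1 (0.08, SE 0.05) did not.

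**Figure D3:**
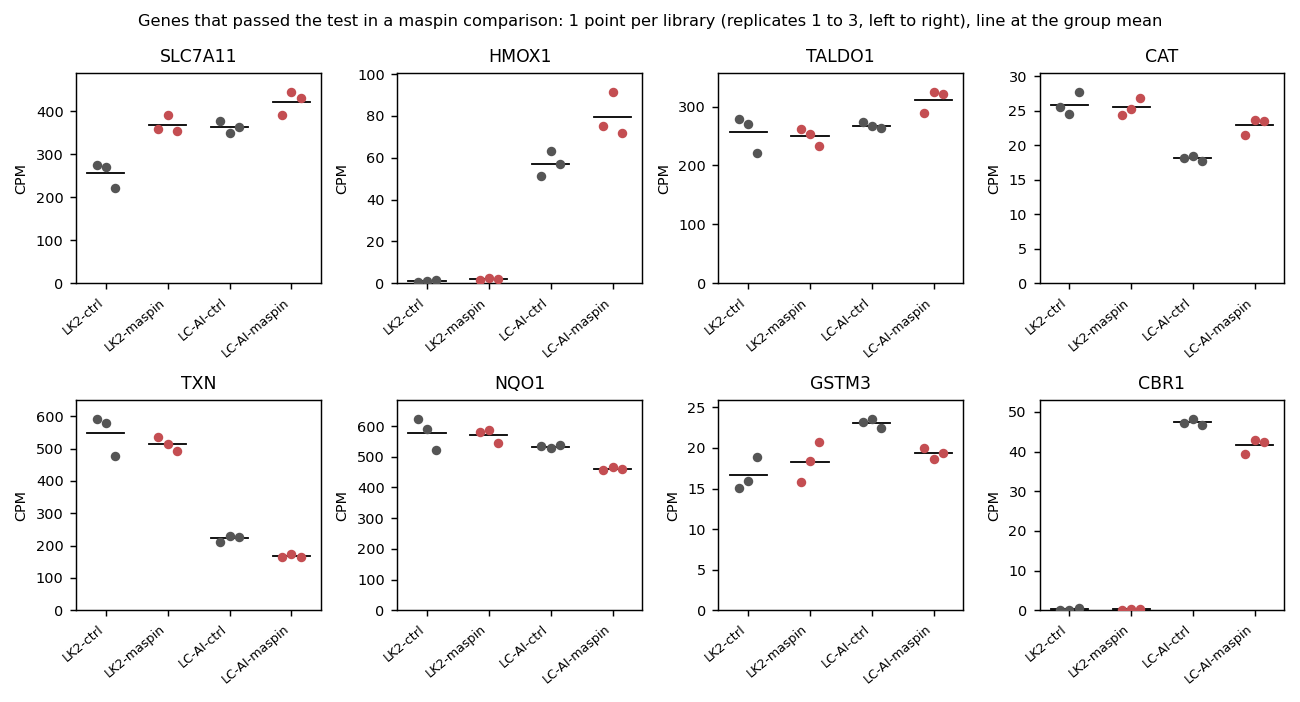
Level in CPM, from 0, of the 8 genes that passed the test with maspin in at least 1 line, where each point is a library and each line a group mean (grey for ctrl, red for maspin). The LC-AI-maspin points lie above the LC-AI-ctrl points in the upper row and below them in the lower row, and in LK-2 the groups separate for SLC7A11 and, at low levels, HMOX1.

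Whether maspin acted differently in the lines was tested as an interaction, the log2 fold change in LK-2 minus that in RERF-LC-AI cells. Maspin itself was not equal, since SERPINB5 averaged 46.5 CPM in LK2-maspin and 512 in LC-AI-maspin libraries. The authors also found the protein in nucleus and cytoplasm of LK2-maspin cells, but mainly in the cytoplasm of LC-AI-maspin cells. The part of its amount and place in the interaction, or in the calls within each line, was not tested. Of the 36 genes 1 passed, AKR1C3, where 1.76% of the 28123 genes tested did. It was at 311, 339 and 339 CPM in LK2-ctrl and 299, 327 and 329.6 in LK2-maspin libraries, with groups that overlapped. In RERF-LC-AI cells it was counted 17, 6 and 11 times in ctrl and 24, 33 and 29 times in maspin libraries, or 0.354, 0.115 and 0.237 and 0.497, 0.556 and 0.468 CPM. The interaction of -1.17 (SE 0.28, adjusted p = 0.0349, edgeR) thus rests on few reads in RERF-LC-AI cells, where the fold change itself of 1.11 (SE 0.44) did not pass within the line (adjusted p = 0.119) and did in the fit of all 12 libraries (adjusted p = 0.0208). Without LC-AI-ctrl replicate 2 the interaction was -0.82 (adjusted p = 0.180). The call was also lost without LC-AI-ctrl replicate 3, any 1 of the LC-AI-maspin libraries, LK2-ctrl replicate 2 or LK2-maspin replicate 2 (adjusted p from 0.0642 to 0.118).

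None of the 8 genes that passed in RERF-LC-AI cells passed the interaction in this fit, which does not use the library number. The interaction was 0.31 (SE 0.10, adjusted p = 0.149, edgeR) for TXN, -0.36 (SE 0.11, adjusted p = 0.105) for CAT and 0.31 (SE 0.11, adjusted p = 0.178) for SLC7A11. HMOX1 gave 0.34 (SE 0.26, adjusted p = 0.67) and NQO1 0.19 (SE 0.09, adjusted p = 0.349). TXN passed with DESeq2 (0.35, adjusted p = 0.0445), and GSTM3 passed without LK2-ctrl replicate 3 (0.53, adjusted p = 0.0260, edgeR).

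The 36 genes also varied between LK-2 libraries of the same group. Among genes with a mean over 8 CPM, the median coefficient of variation in LK2-ctrl was 11.5% over 33 of the 36 genes and 7.31% over 10577 genes. In LK2-maspin the excess was smaller, with 6.22% over 33 of the 36 genes and 5.63% over 10618 genes. In LC-AI-ctrl the median was 2.96% over 30 of them and 4.44% over 10610 genes. OSGIN1 was the clearest case, at 72.5, 55.0 and 33.8 CPM in LK2-ctrl and 72.5, 52.4 and 36.7 in LK2-maspin libraries 1, 2 and 3. In each group the library numbered 1 held about as much as its counterpart in the other group, and about 2-fold more than the library numbered 3 (2.14-fold in ctrl, 1.98-fold in maspin).

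Of those 33 genes, 27 (81.8%) were higher in library 1 than in library 3 in both groups, against 47.7% of 10463 genes. This comparison of libraries was chosen after the values were seen, and it has no test. The genes with the largest ratios after OSGIN1 were GCLM (1.57 in ctrl, 1.37 in maspin), GCLC (1.54 and 1.36), SRXN1 (1.54 and 1.23) and ALDH3A1 (1.52 and 1.56), which synthesise glutathione, repair peroxiredoxins and oxidise aldehydes. GSTM3, AKR1C3 and CAT went the other way in both groups. In RERF-LC-AI cells 5 of 30 genes (16.7%) were higher in library 1 in both groups, against 24% of 10487 genes, and 13 (43.3%) were lower, against 34.1%. The share of all counts taken by the 36 genes was 2.11%, 1.93% and 1.76% in LK2-ctrl libraries 1, 2 and 3, and 1.98%, 1.80% and 1.69% in LK2-maspin. What the equally numbered libraries share, such as a day or a passage, was not given, and its part in the LK-2 comparison was not tested.

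**Figure D4:**
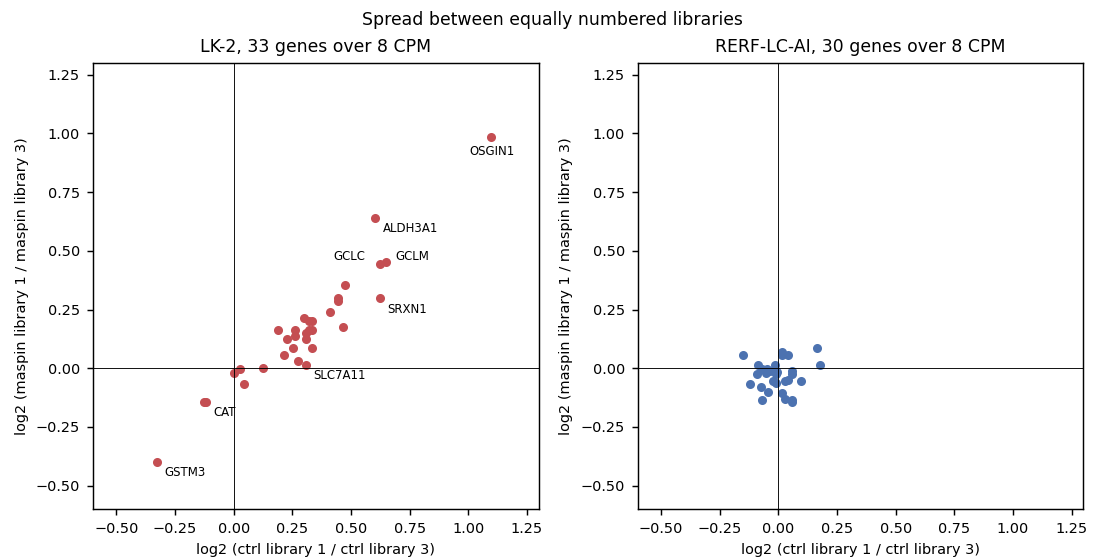
Log2 ratio of library 1 to library 3 for each gene over 8 CPM, in ctrl (horizontal axis) against maspin (vertical axis), for LK-2 (33 genes) and RERF-LC-AI (30 genes). In LK-2 the points run along the diagonal, from GSTM3 at the lower left to OSGIN1 at the upper right, with 27 of 33 above 0 on both axes, and in RERF-LC-AI they cluster near 0.

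A further 72 genes of the same pathways, listed by role, were set beside these. In LK-2 cells none of the 68 that were tested passed with maspin, where 0.533% of all genes did. An unadjusted p under 0.05 was found for 7 (10.3%, against 6.36% of all genes, edgeR). In RERF-LC-AI cells 20 of 67 passed (29.9%, against 10.5% of all genes), 5 higher (7.46%, against 4.01%) and 15 lower (22.4%, against 6.53%). By role, 7 of 24 glutathione and thioredoxin genes fell and 1 rose, and of 13 regulators 3 rose and 1 fell. Without LC-AI-maspin replicate 3 the calls fell from 20 to 13, and those of all genes from 10.5% to 6.86%.

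The largest changes among them in RERF-LC-AI cells were those of ABCB6, a porphyrin transporter (-0.60, SE 0.10, adjusted p = 4.86e-05, edgeR), SESN2, a stress-induced sestrin (0.59, SE 0.07, adjusted p = 3.31e-07), the secreted peroxidase GPX3 (-0.58, SE 0.11) and the peroxiredoxin PRDX2 (-0.55, SE 0.06). SESN2 went from 69.4, 64.5 and 57.0 to 90.6, 109 and 87.9 CPM, and PRDX2 from 74.4, 70.0 and 67.6 to 49.95, 50.9 and 43.7, both without overlap. The interaction passed for 4 of 71 (5.63%, against 1.76% of all genes), GPX3 (0.66), PRDX2 (0.51) and PTGR1 (0.47), higher in LK-2, and ALDH1A1 (-1.89), lower. That of ALDH1A1 rests on few reads, 6, 2 and 7 in LC-AI-ctrl and 10, 16 and 30 in LC-AI-maspin libraries. Its change did not pass within that line (adjusted p = 0.0714, edgeR). The interaction passed for 2 without LC-AI-maspin replicate 3 (0.95% of all genes) and for 7 without LK2-ctrl replicate 3 (2.61%).

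Between the ctrl cells 66 of these 71 genes passed (93%, against 61.9% of all genes). In LK-2 29 were higher (40.8%, against 31.4% of all genes) and 37 lower (52.1%, against 30.5%). ALDH1A1, a retinal and aldehyde dehydrogenase, was at 7267, 7557 and 7636 CPM in LK2-ctrl and 0.125, 0.0385 and 0.151 in LC-AI-ctrl libraries (log2 difference 16.12, SE 0.15). UGT1A6, a glucuronosyltransferase, was higher in LK-2 too (7.52, SE 0.29), and AKR1C4, with 53 reads over the 3 LK2-ctrl libraries and 0 over the 3 LC-AI-ctrl libraries, was at least 16.4-fold higher, with a floor of 3 reads over the group. The reads assigned to AKR1C4 thus lay on the side of the other AKR1C genes, at far fewer reads. Its transcripts hold 9.59% of the windows of AKR1C3, 2.4% of those of AKR1C2 and 0.862% of those of AKR1C1. The 53 reads may therefore be reads of these abundant relatives, which was not tested.

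In the other direction the glutathione transferase GSTM1 had 2 reads over the LK2-ctrl and 9538 over the LC-AI-ctrl libraries, a ratio of 5130 (95% interval from counting error alone 1420 to 42400). GSTM2 (-6.45, SE 0.31), of the same family, and BLVRB, biliverdin reductase B (-3.53, SE 0.10), were lower in LK-2 as well. Glutathione transferases thus lay on opposite sides, with GSTP1 and MGST1 higher and the GSTM genes lower in LK-2. Mean CPM was also lower in LK2-ctrl than in LC-AI-ctrl for GSTO1 (37.4 against 81.4) and GSTK1 (14.3 against 60.3). The same held for GSTA4 (2.91 against 13.6) and MGST3 (35.1 against 75.1), while MGST2 went the other way (10.96 against 8.84). Of the 24 further glutathione and thioredoxin genes tested, 19 were lower and 4 higher in LK-2. The windows that GSTM1 and GSTM2 share were not counted.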

How the data were processed

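Messenger RNA from 12 libraries, 3 in each of 4 groups, was sequenced on a NovaSeq system. The authors trimmed reads with Trimmomatic 0.39, used BWA 0.7.17 to align them with GRCh38.p13, with SAMtools 1.12 (LK-2) or 1.10 (RERF-LC-AI), and deposited 1 table per line with whole-number counts of mapped reads per gene. The counting tool, and whether it used strand, are not given in the sources used here. Beside counts, the deposited tables hold normalized signal columns, which the authors scaled from the counts with edgeR 3.16.5. These columns were not used here. Among counts from 1 to 9, 23.7 to 26.0% were odd, so that most counts may hold each read of a pair, which was not settled. Lines without a symbol, 646 per file, with 0.292 to 0.416% of the counts, were left out.

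The counts were tested in edgeR 4.0.16 (R 4.3.3) by its quasi-likelihood F test. TMM factors were used, genes were kept by filterByExpr (a count of 10, and a total of 15 over libraries), and p-values were adjusted over all genes tested by the Benjamini–Hochberg method. Each line was fitted alone for maspin against ctrl. The ctrl groups and the interaction came from 1 fit of all 12 libraries. The SE is the size of the log2 fold change over the square root of F. The script was tested on simulated counts. Alternatives were DESeq2 1.42.0, the likelihood ratio test, other factors and filters, the replicate number as a block, and leaving out each library.

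The 36 genes and the 72 further pathway genes were chosen with earlier results of these data known. Values per library were given for NFE2L2, KEAP1, CUL3, each gene that passed with maspin or in the interaction, and the 6 genes that differed most between the ctrl groups. Of the further genes, the 4 largest changes with maspin and the 3 largest differences each way between ctrl groups were named among those that passed. Other genes named were chosen by role or after their values were seen. Coordinates and MANE Select transcripts came from GENCODE on GRCh38, and promoters from RefSeq on GRCh38.p14. Sequences and figures were handled in Python 3.11.15 (pandas 2.3.3, matplotlib 3.10.9). Depth differed less than 2-fold between libraries, and genes under 1 CPM rest on few reads.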

Additional observations from a re-analysis of the deposited data

Results flagged for a closer look

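The change of AKR1C3 with maspin differed between the lines by the interaction test, at -1.17 on the log2 scale (LK-2 minus RERF-LC-AI, SE 0.28, adjusted p = 0.0349, edgeR), where 1.76% of all genes tested passed. The reads behind it in RERF-LC-AI cells were 17, 6 and 11 in ctrl and 24, 33 and 29 in maspin libraries, which did not overlap, and the groups overlapped in LK-2 cells. DESeq2 also passed it (adjusted p = 0.00712), and leaving out 1 library gave an adjusted p from 0.0112 to 0.180, with the call lost for 7 of the 12 libraries. Of the windows of 50 bases of AKR1C3, 18.6% are also in transcripts of other genes. No other of the 36 genes passed this test.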

How the results depend on the processing

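In LK-2 cells SLC7A11 was the 1 call, and leaving out 1 library gave 0 to 3 calls among the 36 genes and 0 among the further pathway genes each time. With no filter 1 of the latter was called. In RERF-LC-AI cells HMOX1, CAT and TXN kept their call and direction in all 15 alternatives. Leaving out 1 library gave 6 to 8 and 13 to 19 calls there. Fitting all 12 libraries at once gave 4 and 12 (4.14% of all genes in place of 10.5%). AKR1C3 was then gained (adjusted p = 0.0208, edgeR), and SLC7A11 (adjusted p = 0.135), TALDO1 (0.131), NQO1 (0.0600), GSTM3 (0.191) and CBR1 (0.490) were lost. That fit shares 1 estimate of spread between the lines. Its common coefficient of variation was 9.57%, against 11.7% for LK-2 alone and 6.43% for RERF-LC-AI alone. The part of this spread in the calls gained and lost was not tested. For the interaction, leaving out 1 library gave 0 to 2 and 2 to 7 calls, DESeq2 2 and 8, no filter 7 of the further genes, and library size alone 7. With at least 10 counts in every library it gave 0 among the 36, because AKR1C3 was no longer tested. Between the ctrl groups 26 of 31 genes kept their call and direction in all 21 alternatives, with 31 to 32 and 63 to 66 calls when 1 library was left out. The scaling moved the median of all genes from 0.119 to 0.342 (upper-quartile factors) and 0.341 (library size only). TALDO1 then turned higher in LK-2 (0.159 and 0.156) and so did SOD1 with library size only (0.124), while the calls of NFE2L2, GCLM, GPX4, GSTM3 and TXNRD1 were lost in at least 1 of these. KEAP1, NQO1 and TKT were gained as higher in LK-2 with either scaling.

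What equally numbered ctrl and maspin libraries share beyond the number was not given. Their deviations correlated by 0.154, 0.0144 and 0.164 in LK-2 and 0.0437, 0.0533 and 0.00167 in RERF-LC-AI cells over all genes tested, which was the measure set for pairing, by 0.744, 0.113 and 0.750 and by at least 0.203 over more highly expressed genes (log2 CPM above 3 on average), and by 0.942, 0.411 and 0.939 over the 33 genes in LK-2. As a hint from the data, every library correlated best with its own number over these 33 genes. With the replicate block, 8 of the 36 and 7 of the further genes were called in LK-2 (all genes from 0.533% to 4.53%), 15 of the 36 in RERF-LC-AI cells (from 10.5% to 16.2%), and 10 and 18 in the interaction (from 1.76% to 8.08%). Beside SLC7A11, those called in LK-2 were HMOX1, higher, and ALDH3A1 (-0.36, adjusted p = 5.97e-19, edgeR), AKR1C1, AKR1C2, MGST1, GPX4 and PRDX6, lower. In RERF-LC-AI cells FTL and FTH1, higher, and GCLM, PRDX1, PRDX6, TKT and SOD1, lower, were gained. In the interaction SLC7A11, GSTM3, TXN, NQO1, TALDO1, CAT, MGST1, ALDH3A1 and FTL were gained.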
